A study of Homo sapiens with 15 samples.

Results

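The genes described here are 38 members of the NF-kB pathway, taken by symbol from the TPM table of all 56624 symbols: the transcription factor subunits, their inhibitors and a kinase, feedback and survival proteins, receptors and adaptors, and inflammatory target genes. All 38 were found, each on 1 row of the table, and 36 of them reached the level needed for testing (at least 1 TPM in at least 3 libraries), as did 14881 genes in all. The cells were TF-1, an erythroleukaemia line of human origin that needs a cytokine such as GM-CSF to grow, and lines made from it into which a base editor had written a mutation of IDH1 or IDH2, the cytosolic and mitochondrial NADP-dependent isocitrate dehydrogenases. The 5 groups of 3 libraries were Parental, IDH1R132H, IDH2R140Q, IDH2R140W and IDH2R172K. Parental cells carried no edit and were grown with 2 ng/ml GM-CSF, whereas the 4 edited lines, each named for its mutation, were grown without it. Genotype and cytokine therefore changed together in every comparison with Parental and cannot be told apart there, while the 4 edited lines shared their medium. The labels do not say whether an edited line is a single clone or a pool, nor whether the 3 libraries of a group stem from separate cultures. A p-value here is therefore set against library-to-library spread, and that spread may be technical.

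NF-kB is a family of dimeric transcription factors. In the canonical pathway, receptors for TNF, interleukin 1 and microbial products activate the IKK kinase, the inhibitory IkB proteins are degraded, and dimers such as RELA with the NFKB1 product p50 enter the nucleus. In the non-canonical pathway, receptors such as CD40 spare the kinase NIK from degradation by TRAF2, TRAF3, BIRC2 and BIRC3, after which the NFKB2 product p100 is processed to p52 and acts together with RELB. Many targets of NF-kB are its own inhibitors and feedback proteins, and others are cytokines and chemokines; the pathway is often active in myeloid leukaemia cells. The level of an mRNA does not show how much of these factors is in the nucleus.

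Sites to which NF-kB binds share a short motif, and the promoters of several members hold one. RefSeq promoter windows (GRCh38.p14), which run from 250 bases before to 50 bases after a gene's start, were at hand for 34 of the 38 members, CXCL16, IKBKB, NFKBIE and RELB being those without one. Both strands were searched for the kappaB consensus and for a strict kappaB motif, GGGA and TTCC parted by any 2 bases. A strict match can also be a match to the consensus. The strict motif was in 1.61% of 35116 windows and in 12 of the 54 windows of the members, and the consensus in 5.91% of windows and in 16 of the 54. Counted by gene, at least 1 window held the strict motif for 1.97% of 27305 symbols and 12 of the 34 members, and the consensus for 7.09% of symbols and 14 of the 34. Because these members were listed as NF-kB factors and targets, the higher share among them is a property of the list. The stretches below are shown because their genes carry the expression results that follow: genes that rose in IDH1R132H (TNFAIP3, BIRC3, CXCL10), a gene that rose in IDH2R140W (CXCL3), and a subunit and an inhibitor (NFKB2, NFKBIA) that differed less. Each reads 5′ to 3′ on the strand of its gene, with the matched bases in capitals. By GENCODE release 29 the stretches of NFKB2, TNFAIP3 and CXCL3 overlap an exon, and those of NFKBIA, BIRC3 and CXCL10 lie upstream of the annotated gene.
NFKB2, chr10:102394462-102394490, plus strand: aaacgtcatGGGAATTCCCCcctccgggg
NFKBIA, chr14:35404806-35404845, minus strand: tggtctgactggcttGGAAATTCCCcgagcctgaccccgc
TNFAIP3, chr6:137867188-137867217, plus strand: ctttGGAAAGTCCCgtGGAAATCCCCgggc
BIRC3, chr11:102317270-102317373, plus strand: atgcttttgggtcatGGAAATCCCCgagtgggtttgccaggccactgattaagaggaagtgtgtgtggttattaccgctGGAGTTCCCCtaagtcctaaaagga
CXCL10, chr4:76023595-76023689, minus strand: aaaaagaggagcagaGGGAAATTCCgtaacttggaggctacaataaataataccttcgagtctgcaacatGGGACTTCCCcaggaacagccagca
CXCL3, chr4:74038749-74038777, minus strand: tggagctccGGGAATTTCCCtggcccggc

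BIRC3, CXCL10 and TNFAIP3 each showed 2 separate matches, and in NFKB2 and CXCL3 the capitals are a pair of overlapping matches, 1 on each strand. CXCL1 and CXCL2 held the same overlapping pair as CXCL3, spanning positions -79 to -69 and -78 to -68 from their starts, respectively. Of the other genes that rose in IDH1R132H, TNFAIP2, TRAF1 and IL1RN had no match in their windows, and neither had TNFRSF1B and IL1A, which fell. A match is only a run of letters, and its absence says that these letters are not in this window.

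**Figure D1:**
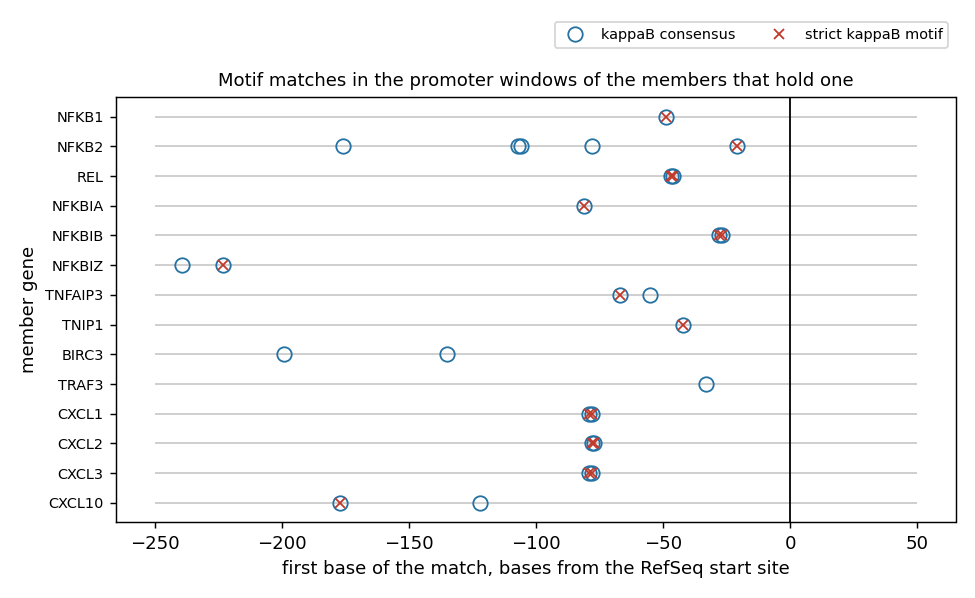
Position of each motif match in the promoter windows of the 14 members that hold one; the x axis gives the first base of the match in bases from the RefSeq start site, each line is the window or windows of 1 gene, laid over each other, from -250 to 50, circles are kappaB consensus matches and crosses are strict kappaB matches. All matches begin before the start site, from -239 in NFKBIZ to -21 in NFKB2.

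Levels are TPM, an abundance per transcript length and per fixed library total, so levels of different genes can be set side by side, but the reads behind a value, and hence its counting error, are unknown. Differences come from limma fitted to log2(TPM + 1) of all 15 libraries, a scale on which the change of a weakly expressed gene is understated. A gene is said to have risen or fallen where its Benjamini-Hochberg adjusted p over all 14881 genes was under 0.05 and the difference was at least 1 (2-fold). With 3 libraries a side the smallest p of an exact permutation test is 0.1, so each adjusted p leans on a spread shared across genes and groups. Between 12796 and 13792 symbols reached 1 TPM in a library, and each of the 15 libraries correlated best with another of its own group. Parental replicate 2 and IDH2R140W replicate 3 stood apart in the share of TPM held by ribosomal protein genes, at 19.3% and 20.2% against 15.4% to 16.9% in the other libraries of these groups. They also had the lowest summed TPM of the 38 members, 972 and 1043, against 1111 to 1312 in the other 13 libraries. Relative to Parental the median gene tested lay 0.16 higher in IDH1R132H, 0.23 higher in IDH2R140Q, 0.03 higher in IDH2R140W and 0.13 higher in IDH2R172K. TPM does not show which allele of IDH1 or IDH2 a library carries, so these values do not test the labels.

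Of 9 markers of TF-1 and its progenitor state, 7 (CD34, KIT, CSF2RB, GATA2, EPOR, TAL1 and CD33) stood at 1 TPM or more in every group, and CSF2RA, a chain of the GM-CSF receptor, and GATA1, an erythroid transcription factor, were listed at 0 in all 15 libraries. IRAK1, a widely expressed kinase of the pathway, was also listed at 0 in all of them, so a 0 in this table may be a missing estimate and does not show that a gene is silent. Because inflammatory genes are also made by monocytes, 9 markers of that lineage were summed, and the sum was 127 to 163 TPM in Parental, 129 to 136 in IDH1R132H, 136 to 149 in IDH2R140Q, 94.4 to 122 in IDH2R140W and 147 to 162 in IDH2R172K. Most of it was LYZ and ITGAM, which early myeloid cells also express, and FCGR1A and FCN1 were listed at 0 in every library, with CD14 at 0.66 TPM or less. Markers of B cells, epithelium and fibroblasts summed to at most 2.92 TPM in a library. The T-cell sum was nearly all CD3D, at 60.5 to 82.9 TPM in Parental, 28.9 to 36.2 in IDH1R132H, 0.64 to 3.51 in IDH2R140Q, 7.63 to 10.9 in IDH2R140W and 49.5 to 57.6 in IDH2R172K, with CD3E at 0.2 TPM or less. The endothelial sum was mostly PECAM1, at 46.6 to 127, 139 to 162, 101 to 108, 32.1 to 76.8 and 108 to 136 TPM in the same order. CDH5, a further marker in that sum, stood at 0.51 to 0.92 TPM in Parental, 11.8 to 12.6 in IDH1R132H, 4.6 to 5.2 in IDH2R140Q, 0.19 to 0.88 in IDH2R140W and 24.5 in each library of IDH2R172K, while VWF was at 0.37 TPM or less. The part of these markers in the results was not tested. In bulk RNA, fewer cells of a type and less RNA per cell cannot be told apart.

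IDH1R132H was the line in which most members rose. Against Parental, 8 of the 36 members tested rose (22.2%, where 7.74% of all genes tested rose) and 2 fell (5.56%, against 3.09% of all genes). The risers were the subunit RELB, the inhibitor NFKBIE, the feedback and survival genes TNFAIP2, TNFAIP3, BIRC3 and TRAF1, the interleukin 1 receptor antagonist IL1RN and the chemokine CXCL10; TNFRSF1B and IL1A fell. In each IDH2 line 1 member rose and 1 fell: BIRC3 and TNFRSF1B in IDH2R140Q (7.56% and 2.47% of all genes), CXCL3 and TNFRSF1B in IDH2R140W (2.68% and 2.1%), and IL1B and TNFRSF1B in IDH2R172K (6.36% and 2.96%). TRAF1 reached 1 TPM only in the libraries of IDH1R132H, and CXCL10 only in those and in 1 library of IDH2R140W, so these genes could enter the test only by being high there and lend no weight to any count in which IDH1R132H is high; without them 6 of 34 members rose (17.6%). Fitted without a filter, over all 38 members, the comparison again gave 8 higher and 2 lower. With at least 5 TPM in 3 libraries it gave 6 calls in 27 members: RELB, NFKBIE, TNFAIP2 and TNFAIP3 rose, and TNFRSF1B and IL1A fell. The shares of all genes called under these settings are not given here. Since the 4 comparisons share the Parental libraries, their calls are not independent of each other. The members were chosen with earlier results of these data known. Their shares beside those of all genes, here and below, are therefore a description and not a test of the list.

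**Figure D2:**
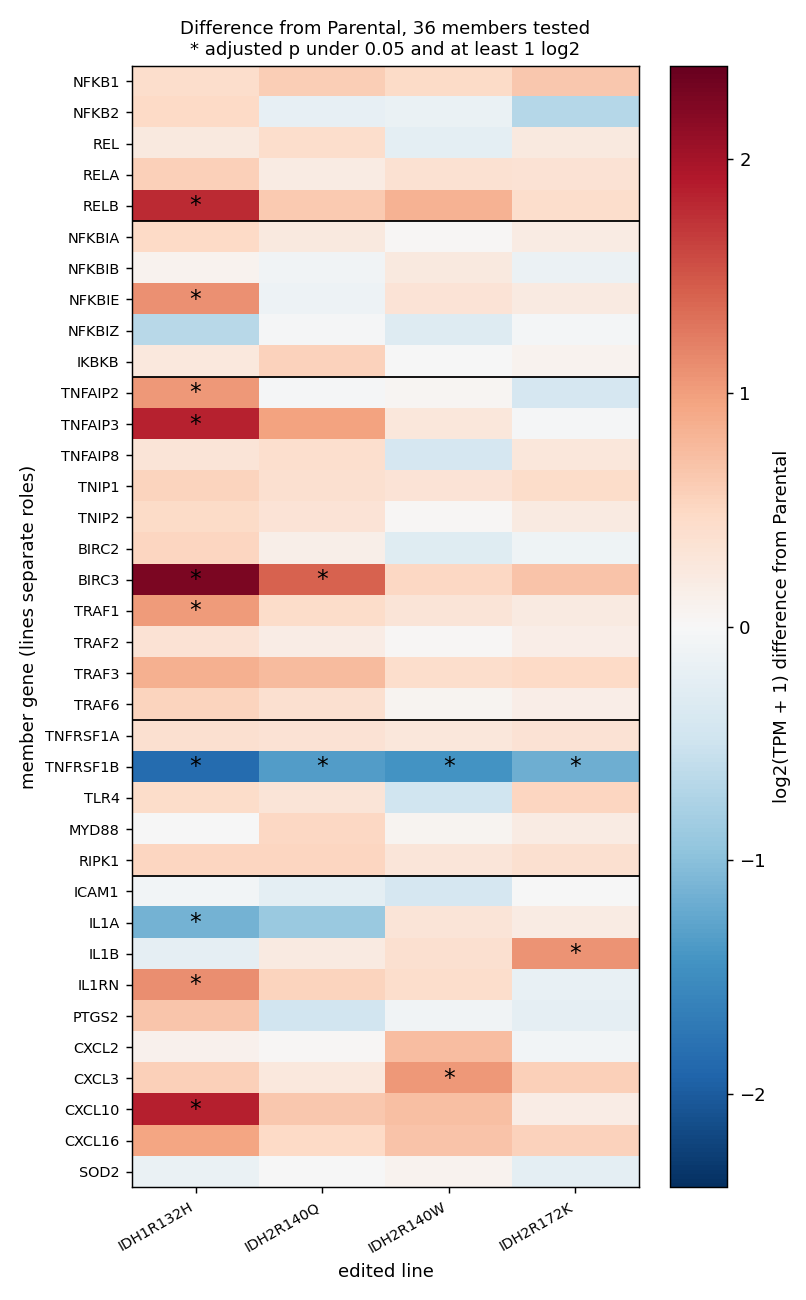
Log2(TPM + 1) difference from Parental for the 36 members tested (rows, grouped by role) in each edited line (columns); red is higher than Parental, blue is lower, and an asterisk marks adjusted p under 0.05 with a difference of at least 1. The IDH1R132H column holds 10 of the 16 asterisks, and TNFRSF1B is the row with an asterisk in every column.

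Among the 5 subunits RELB rose in IDH1R132H, and no other subunit rose or fell in any line. RELB (ENSG00000104856, hg38 chr19:45001430-45038198, plus strand), the partner of p52 in the non-canonical pathway, stood at 12.7, 14.9 and 10.7 TPM in Parental and at 46.3, 48.9 and 43.6 in IDH1R132H. It was 19.5, 20.6 and 20.5 in IDH2R140Q, 22.0, 22.7 and 25.7 in IDH2R140W and 16.5, 16.6 and 18.9 in IDH2R172K. Every edited library lay above every Parental library, and the IDH1R132H libraries lay far above all others. The difference from Parental was 1.79 ± 0.11 (SE) in IDH1R132H (means 12.8 ± 2.09 and 46.3 ± 2.69 TPM, SD, n = 3 each, limma adjusted p = 2.32e-08), and 0.64, 0.84 and 0.42 in IDH2R140Q, IDH2R140W and IDH2R172K (limma adjusted p = 0.000414, 7.80e-05 and 0.00800). RELB was also higher in IDH1R132H than in IDH2R140Q by 1.15 and than in IDH2R172K by 1.37 (limma adjusted p = 3.79e-06 and 4.91e-07). Against IDH2R140W the difference was 0.95, under 2-fold, but it passed 2-fold without IDH2R140W replicate 3.

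NFKB2 (ENSG00000077150, hg38 chr10:102394110-102402529, plus strand), which encodes p100, the precursor of p52, differed among the edited lines. It stood at 34.9, 29.7 and 30.6 TPM in Parental, 39.5, 47.4 and 46.9 in IDH1R132H, 28.7, 29.6 and 24.3 in IDH2R140Q, 27.6, 32.0 and 25.6 in IDH2R140W and 18.0, 18.3 and 21.9 in IDH2R172K. The 3 IDH1R132H libraries were the highest of all 15 and the 3 IDH2R172K libraries the lowest. Its difference from Parental was 0.48 in IDH1R132H and −0.68 in IDH2R172K (limma adjusted p = 0.00471 and 0.000403), both under 2-fold, and IDH1R132H exceeded IDH2R172K by 1.16 (adjusted p = 4.31e-06).

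The remaining subunits differed from Parental by less than 2-fold in each line. NFKB1, the precursor of p50, stood at 32.8, 21.8 and 33.7 TPM in Parental, 37.2, 39.8 and 40.1 in IDH1R132H, 42.6, 46.5 and 43.5 in IDH2R140Q, 44.4, 44.6 and 32.1 in IDH2R140W and 45.2, 47.7 and 45.0 in IDH2R172K. Like RELB, it had adjusted p under 0.05 in each line, with differences of 0.42, 0.59, 0.45 and 0.65 (limma adjusted p = 0.0346, 0.00552, 0.0402 and 0.00342 in the order above). The low libraries were Parental replicate 2 and IDH2R140W replicate 3, the pair with the high ribosomal protein share. RELA, the main transactivating subunit, read 50.6, 32.0 and 47.0 TPM in Parental, 59.4, 64.6 and 65.4 in IDH1R132H, 47.8, 50.6 and 47.8 in IDH2R140Q, 61.5, 62.7 and 42.4 in IDH2R140W and 53.1, 54.4 and 54.8 in IDH2R172K. Only in IDH1R132H did its adjusted p pass 0.05 (difference 0.56, limma adjusted p = 0.0100); whether that differs from the other lines was tested across the 4 edited lines and did not pass (limma F test, adjusted p = 0.239). REL, the lymphoid subunit, was the least abundant, at 1.56, 0.88 and 2.17 TPM in Parental, 2.3, 1.54 and 2 in IDH1R132H, 2.35, 2.61 and 2.07 in IDH2R140Q, 1.45, 1.43 and 0.56 in IDH2R140W and 1.19, 2.06 and 2.68 in IDH2R172K. Its ranges overlapped between groups, except that IDH2R140W lay below IDH1R132H and IDH2R140Q.

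**Figure D3:**
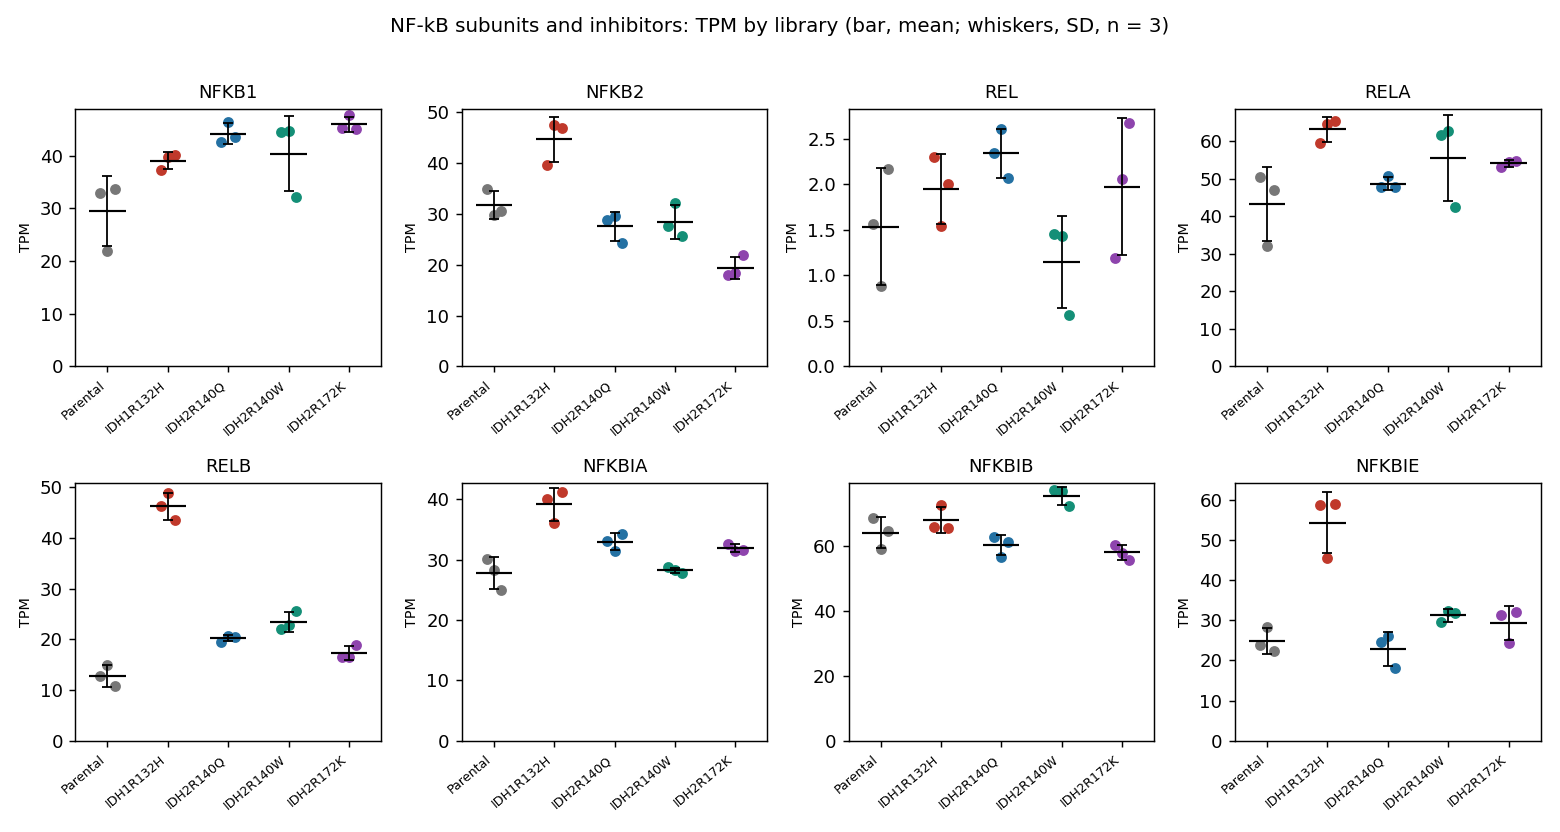
TPM of the 5 subunits and of the inhibitors NFKBIA, NFKBIB and NFKBIE in each of the 15 libraries (points), by group, with the mean (bar) and SD (whiskers, n = 3); each panel has its own axis from 0. RELB and NFKBIE in IDH1R132H stand clear of every other library, and NFKB2 is lowest in IDH2R172K.

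Of the inhibitors and the kinase, NFKBIE rose in IDH1R132H and no other member rose or fell. NFKBIE (ENSG00000146232, hg38 chr6:44258166-44265788, minus strand), the gene of IkB epsilon, stood at 23.8, 28.4 and 22.4 TPM in Parental, 58.6, 45.5 and 59.0 in IDH1R132H, 24.5, 26.1 and 18.1 in IDH2R140Q, 29.5, 32.4 and 31.9 in IDH2R140W and 31.3, 24.4 and 32.1 in IDH2R172K. All IDH1R132H libraries lay above the other 12. The difference from Parental was 1.10 ± 0.15 in IDH1R132H (limma adjusted p = 5.06e-05), and −0.12, 0.33 and 0.22 in the IDH2 lines in the order above, none of them with adjusted p under 0.05. Rescaling the libraries to equal median ratios left NFKBIE at 0.90 in IDH1R132H, and quantile normalisation at 0.91, both under 2-fold with adjusted p still under 0.05. The direct difference from IDH2R140Q was 1.22 (limma adjusted p = 3.81e-05).

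NFKBIA, which encodes IkB alpha and is the classical early feedback target, stood at 30.1, 28.3 and 25.0 TPM in Parental, 40.1, 36.2 and 41.3 in IDH1R132H, 33.1, 31.5 and 34.3 in IDH2R140Q, 28.7, 28.3 and 27.9 in IDH2R140W and 32.7, 31.5 and 31.6 in IDH2R172K. IDH1R132H was again above the other 12 libraries, by less than 2-fold (0.48 against Parental, limma adjusted p = 0.000308). NFKBIB, which encodes IkB beta, was 68.6, 59.1 and 64.6 TPM in Parental, 65.8, 72.6 and 65.6 in IDH1R132H, 62.8, 56.7 and 61.1 in IDH2R140Q, 77.3, 76.9 and 72.2 in IDH2R140W and 60.3, 58.0 and 55.8 in IDH2R172K. IDH2R140W was the line above Parental in all its libraries, by 0.23 (limma adjusted p = 0.0332). NFKBIZ, an atypical nuclear IkB protein, went the other way from its relatives in IDH1R132H, with 4, 3.43 and 3.38 TPM against 7.68, 4.86 and 6.54 in Parental (difference −0.66, limma adjusted p = 0.00952). IKBKB, the catalytic IKK subunit, had group means from 16.7 TPM in IDH2R140W to 24.7 in IDH2R140Q, where its difference from Parental was 0.55 (limma adjusted p = 0.0152).

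Among the 11 feedback and survival genes, TNFAIP2, TNFAIP3, BIRC3 and TRAF1 rose in IDH1R132H, where 7.74% of all genes rose, and BIRC3 also rose in IDH2R140Q, where 7.56% did. TRAF1 was tested only because it was high in IDH1R132H. TNFAIP3 (ENSG00000118503, hg38 chr6:137867188-137883312, plus strand) encodes A20, a ubiquitin-editing enzyme that shuts off NF-kB signalling. Its libraries read 2.97, 2.91 and 2.58 TPM in Parental, 13.7, 11.3 and 13.6 in IDH1R132H, 5.08, 6.56 and 7.98 in IDH2R140Q, 3.66, 5.5 and 2.26 in IDH2R140W and 2.42, 3.19 and 2.69 in IDH2R172K. IDH1R132H stood highest, IDH2R140Q lay between it and Parental without overlap, and the other lines overlapped Parental. The difference from Parental was 1.86 ± 0.22 in IDH1R132H (limma adjusted p = 1.04e-05) and 0.96 in IDH2R140Q (limma adjusted p = 0.00254), just under 2-fold. That in IDH2R140Q passed 2-fold without IDH2R140Q replicate 1 (1.11) and with a pseudocount of 0.1 (1.16). IDH1R132H also exceeded IDH2R140W by 1.58 and IDH2R172K by 1.88 (limma adjusted p = 6.04e-05 and 1.35e-05).

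BIRC3 (ENSG00000023445, hg38 chr11:102317450-102339403, plus strand), which encodes the ubiquitin ligase cIAP2, was barely detected in Parental, at 0.2, 0.33 and 0.34 TPM. It stood at 6.6, 4.3 and 4.89 in IDH1R132H, 3.08, 1.95 and 2.34 in IDH2R140Q, 0.94, 0.95 and 0.56 in IDH2R140W and 1.01, 0.59 and 1.76 in IDH2R172K. Every edited library was above every Parental library, and the order from high to low was IDH1R132H, IDH2R140Q and then the last lines, which overlapped each other. BIRC3 rose by 2.26 ± 0.21 in IDH1R132H and by 1.41 ± 0.21 in IDH2R140Q (limma adjusted p = 1.50e-06 and 0.000135), and with a pseudocount of 0.1 these became 3.78 and 2.71. With that pseudocount BIRC3 was called in the other lines as well, at 1.22 in IDH2R140W and 1.55 in IDH2R172K (limma adjusted p = 0.0283 and 0.00477). Its neighbour BIRC2 (hg38 chr11:102347211-102378670, plus strand), which encodes the related cIAP1, stood at a mean of 23.1 TPM in Parental and 33.5 in IDH1R132H (difference 0.51, limma adjusted p = 0.00287), with the 3 IDH1R132H libraries above all others.

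TNFAIP2 (ENSG00000185215, hg38 chr14:103123442-103137439, plus strand), a TNF-induced gene of cell shape and membrane tubes, stood at 29.3, 22.8 and 25.1 TPM in Parental, 55.1, 52.5 and 54.0 in IDH1R132H, 24.5, 24.3 and 26.4 in IDH2R140Q, 26.8, 28.8 and 24.3 in IDH2R140W and 21.2, 17.4 and 19.2 in IDH2R172K. The IDH1R132H libraries were far above the rest, and those of IDH2R172K were below all others. The rise of 1.04 ± 0.10 in IDH1R132H (limma adjusted p = 2.20e-06) fell under 2-fold after median-ratio scaling (0.85), after quantile normalisation (0.85) and without Parental replicate 2 (0.97). Its direct differences from IDH2R140Q and IDH2R172K were 1.07 and 1.44 (limma adjusted p = 3.61e-06 and 1.33e-07).

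TRAF1 (ENSG00000056558, hg38 chr9:120902393-120929173, minus strand), an adaptor that is itself a target of NF-kB, stood at 0.23, 0.13 and 0.09 TPM in Parental, 1.25, 1.38 and 1.37 in IDH1R132H, 0.7, 0.52 and 0.44 in IDH2R140Q, 0.35, 0.36 and 0.55 in IDH2R140W and 0.21, 0.36 and 0.43 in IDH2R172K. IDH1R132H was above all other libraries at a low level throughout. Its rise of 1.02 was the one closest to the threshold in that comparison (limma adjusted p = 7.96e-05), went under it after median-ratio scaling (0.96), after quantile normalisation (0.83) and without Parental replicate 3 (0.98), and read 2.56 with a pseudocount of 0.1. With that pseudocount TRAF1 was also called in IDH2R140Q, at 1.405 (limma adjusted p = 0.0154). The other TRAF adaptors did not rise or fall. In IDH1R132H TRAF3, which restrains NIK, differed by 0.85, TRAF6, the adaptor of the interleukin 1 and Toll-like receptors, by 0.54, and TRAF2 by 0.35 (limma adjusted p = 0.00291, 0.0201 and 0.0173), and in IDH2R140Q TRAF3 differed by 0.77 (0.00601). Parental replicate 2, with its high ribosomal protein share, was the lowest Parental library for TRAF2, TRAF3 and TRAF6. For TRAF3 it read 13.45 TPM, against 21.48 and 20.18 in the other Parental libraries.

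The A20-binding proteins were abundant and differed little. TNIP1 stood at 64.5, 58.7 and 61.3 TPM in Parental and between 68.7 and 91.9 in the edited lines, all of whose libraries were above Parental. Its differences were 0.54, 0.39, 0.34 and 0.44 (limma adjusted p = 8.49e-05, 0.00119, 0.00623 and 0.000540), and TNIP2 differed by 0.47 in IDH1R132H and 0.32 in IDH2R140Q (0.000527 and 0.00737). TNFAIP8, a survival protein induced by TNF, had differences of opposite sign, 0.31, 0.40 and 0.27 in IDH1R132H, IDH2R140Q and IDH2R172K and −0.40 in IDH2R140W (limma adjusted p = 0.0191, 0.00487, 0.0437 and 0.00864), and its difference among the edited lines spanned less than 2-fold.

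**Figure D4:**
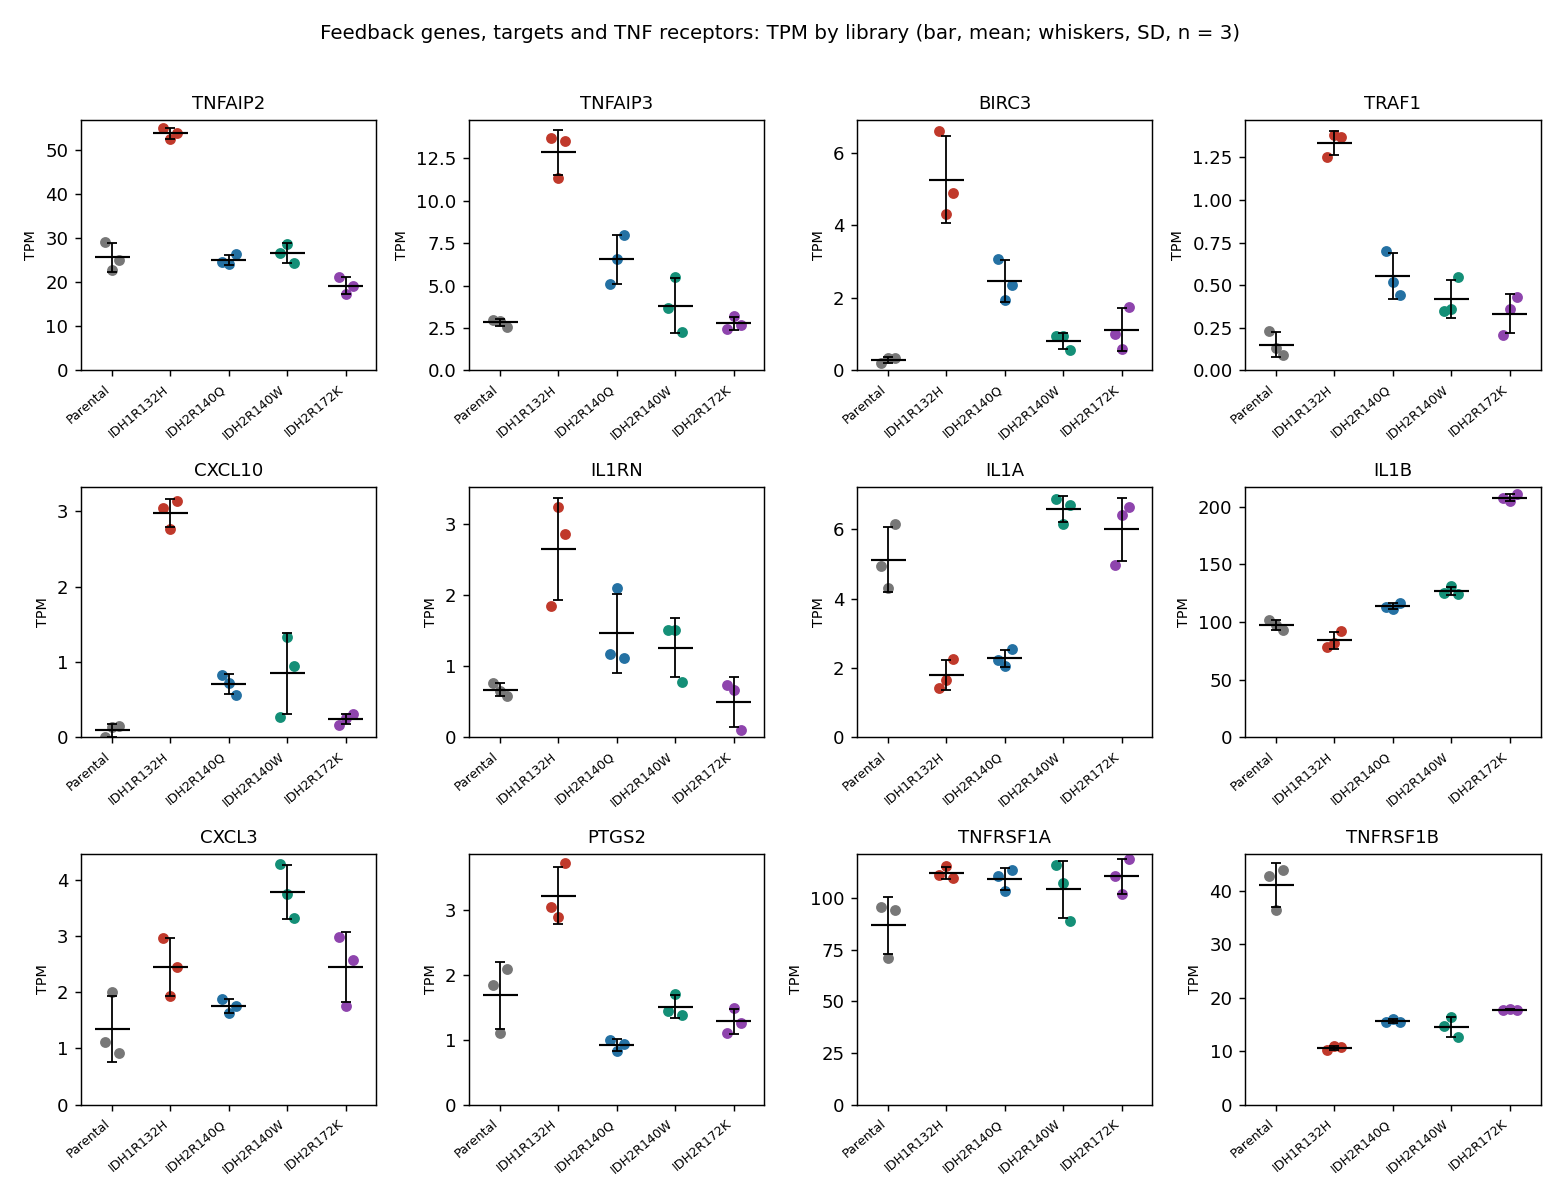
TPM of 12 feedback genes, targets and TNF receptors in each of the 15 libraries (points), by group, with the mean (bar) and SD (whiskers, n = 3); each panel has its own axis from 0. TNFAIP2, TNFAIP3, BIRC3, TRAF1 and CXCL10 are highest in IDH1R132H, IL1B is highest in IDH2R172K, and TNFRSF1B is highest in Parental.

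TNFRSF1B was the member that fell in all 4 lines, as 0.484% of the genes tested did; the 4 falls share the same Parental libraries. TNFRSF1B (ENSG00000028137, hg38 chr1:12167003-12209228, plus strand) encodes TNFR2, the TNF receptor that lacks a death domain. It stood at 42.8, 36.4 and 43.9 TPM in Parental, 10.3, 10.9 and 10.7 in IDH1R132H, 15.4, 16.0 and 15.5 in IDH2R140Q, 14.6, 16.4 and 12.6 in IDH2R140W and 17.6, 17.8 and 17.8 in IDH2R172K. No edited library came near the Parental range, and the IDH1R132H libraries were below all others. The gene fell by 1.85 in IDH1R132H, by 1.33 in IDH2R140Q, by 1.44 in IDH2R140W and by 1.16 in IDH2R172K (SE 0.10 each, limma adjusted p = 7.62e-09, 2.24e-07, 2.36e-07 and 8.43e-07). Among the edited lines its level differed (limma F test, adjusted p = 0.000350), with a span under 2-fold.

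TNFRSF1A, which encodes TNFR1, the death-domain TNF receptor, did not follow TNFRSF1B. Its libraries were 95.5, 71.0 and 94.2 TPM in Parental and between 89.0 and 119 in the edited lines, and its differences were 0.38, 0.34, 0.26 and 0.35 (limma adjusted p = 0.0163, 0.0281, 0.118 and 0.0254). RIPK1, the kinase recruited to TNFR1, differed by 0.51, 0.51, 0.30 and 0.39 (limma adjusted p = 0.00468, 0.00477, 0.105 and 0.0255). Parental replicate 2 was the lowest of the 15 libraries for both genes.

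The Toll-like receptors were present at low level. TLR4, the receptor for lipopolysaccharide, had group means of 5.80, 8.08, 7.33, 3.96 and 8.58 TPM in Parental, IDH1R132H, IDH2R140Q, IDH2R140W and IDH2R172K, and its difference from Parental reached adjusted p under 0.05 in IDH2R172K (0.51, limma adjusted p = 0.0313). TLR2 was not tested; it was listed at 0 in all libraries of Parental and IDH2R172K, at 0.33, 0.52 and 0.51 TPM in IDH1R132H, at 0.35, 0.38 and 0.39 in IDH2R140Q, and at 0.07, 0 and 0 in IDH2R140W. MYD88, the adaptor of both receptors, differed in IDH2R140Q by 0.50 (limma adjusted p = 0.0159) and by 0.19 or less in the other lines.

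The interleukin 1 genes, which neighbour each other on chromosome 2, did not move together. IL1A (ENSG00000115008, hg38 chr2:112773915-112784590, minus strand), which encodes the alarmin interleukin 1 alpha, stood at 4.94, 4.3 and 6.14 TPM in Parental, 1.44, 1.66 and 2.27 in IDH1R132H, 2.22, 2.06 and 2.56 in IDH2R140Q, 6.86, 6.15 and 6.71 in IDH2R140W and 4.96, 6.42 and 6.63 in IDH2R172K. The libraries fell into a low set, IDH1R132H and IDH2R140Q, and a high set, the other 3 groups, with no overlap between the sets. IL1A fell by 1.13 in IDH1R132H (SE 0.16, limma adjusted p = 5.59e-05). In IDH2R140Q the difference was −0.89 (limma adjusted p = 0.000471). It passed 2-fold after median-ratio scaling (−1.09), after quantile normalisation (−1.17) and with a pseudocount of 0.1 (−1.13). IDH1R132H was below IDH2R140W by −1.45 and below IDH2R172K by −1.33, and IDH2R140Q was below them by −1.21 and −1.09 (limma adjusted p = 7.71e-06, 1.95e-05, 5.88e-05 and 0.000118).

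IL1B (ENSG00000125538, hg38 chr2:112829751-112836903, minus strand), the secreted fever-inducing cytokine, was more abundant by far, at 101, 97.7 and 93.4 TPM in Parental. It read 78.3, 81.8 and 92.6 TPM in IDH1R132H, 113, 111 and 116 in IDH2R140Q, 125, 131 and 125 in IDH2R140W and 208, 205 and 210 in IDH2R172K. The 5 groups did not overlap at all, from IDH1R132H as the lowest to IDH2R172K as the highest. IL1B rose by 1.08 ± 0.06 in IDH2R172K (limma adjusted p = 2.14e-08), which became 0.93 after median-ratio scaling and 0.95 after quantile normalisation. In the other lines it differed by −0.21, 0.22 and 0.38 (limma adjusted p = 0.0161, 0.0138 and 0.000685), and IDH2R172K exceeded IDH1R132H by 1.30 (adjusted p = 3.84e-09).

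IL1RN (ENSG00000136689, hg38 chr2:113107214-113134016, plus strand), whose product blocks the interleukin 1 receptor, stood at 0.77, 0.66 and 0.59 TPM in Parental, 1.85, 3.24 and 2.86 in IDH1R132H, 1.18, 2.11 and 1.12 in IDH2R140Q, 1.51, 1.51 and 0.78 in IDH2R140W and 0.74, 0.67 and 0.1 in IDH2R172K. IDH1R132H, IDH2R140Q and IDH2R140W lay above Parental, and IDH1R132H overlapped IDH2R140Q. Its rise of 1.11 ± 0.23 in IDH1R132H (limma adjusted p = 0.00160) went to 0.91 after quantile normalisation and 0.99 without IDH1R132H replicate 2, and to 1.80 with a pseudocount of 0.1. In IDH1R132H IL1A fell, IL1RN rose and IL1B differed by less than 2-fold.

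CXCL10 (ENSG00000169245, hg38 chr4:76021117-76023497, minus strand), a chemokine that attracts T cells and that interferons as well as NF-kB induce, was near 0 in Parental, at 0, 0.14 and 0.15 TPM. It stood at 3.04, 2.77 and 3.13 in IDH1R132H, 0.83, 0.72 and 0.57 in IDH2R140Q, 0.27, 1.33 and 0.95 in IDH2R140W and 0.17, 0.26 and 0.31 in IDH2R172K. Every edited library exceeded every Parental library, and IDH1R132H stood clear of the rest. CXCL10 rose by 1.86 ± 0.20 in IDH1R132H (limma adjusted p = 4.69e-06), and by 4.08 with a pseudocount of 0.1. With that pseudocount CXCL10 was also called in IDH2R140Q and IDH2R140W, at 2.14 and 2.18 (limma adjusted p = 0.00491 and 0.00775). It was the member called higher in IDH1R132H than in each other edited line, as 0.719% of all genes were, with differences of 1.22, 1.15 and 1.68 from IDH2R140Q, IDH2R140W and IDH2R172K (limma adjusted p = 0.000352, 0.000455 and 1.83e-05). Since CXCL10 was tested only because it was high in IDH1R132H, that share is no yardstick for it. Without IDH2R140W replicate 1 the difference from IDH2R140W was 0.90, under 2-fold. With a pseudocount of 0.1, BIRC3, PTGS2 and TNFAIP2 joined CXCL10 in being called higher than in each other line.

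The CXCL1, CXCL2 and CXCL3 genes, neutrophil chemokines in the same chromosome 4 region, stayed at a few TPM or less. CXCL3 (ENSG00000163734, hg38 chr4:74036589-74038807, minus strand) stood at 1.12, 2.01 and 0.91 TPM in Parental, 2.96, 1.93 and 2.44 in IDH1R132H, 1.88, 1.63 and 1.75 in IDH2R140Q, 4.28, 3.75 and 3.31 in IDH2R140W and 2.98, 1.76 and 2.58 in IDH2R172K. IDH2R140W was above all other libraries, and the other lines overlapped Parental. CXCL3 rose by 1.05 ± 0.20 in IDH2R140W (limma adjusted p = 0.00132), close to the threshold: the difference was 0.99 without Parental replicate 1, 0.92 without Parental replicate 3, 0.98 without IDH2R140W replicate 1 and 0.98 after quantile normalisation. CXCL2 had 2.69, 1.6 and 2.17 TPM in IDH2R140W against 0.94, 0.69 and 1 in Parental (0.74, limma adjusted p = 0.0618). CXCL1 was not tested, with values between 0 and 1.11 TPM over the 15 libraries. Because the coding sequences of CXCL1, CXCL2 and CXCL3 are alike, reads may have been split between them in counting, and their separate levels are uncertain.

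PTGS2 (ENSG00000073756, hg38 chr1:186671791-186680427, minus strand), which encodes the inducible cyclooxygenase COX-2, stood at 1.85, 1.11 and 2.09 TPM in Parental, 3.04, 2.9 and 3.72 in IDH1R132H, 1, 0.82 and 0.93 in IDH2R140Q, 1.44, 1.71 and 1.39 in IDH2R140W and 1.11, 1.49 and 1.26 in IDH2R172K. IDH1R132H was above every other library and IDH2R140Q below every other. The differences from Parental, 0.67 and −0.47 (limma adjusted p = 0.00457 and 0.0325), were under 2-fold, and that between IDH1R132H and IDH2R140Q was 1.13 (adjusted p = 0.000135). CXCL16, a membrane-bound chemokine, was the member nearest the threshold from below in IDH1R132H, with 3.34, 6.4 and 2.87 TPM against 2.37, 0.78 and 1.94 in Parental (0.94, limma adjusted p = 0.0191). Leaving out Parental replicate 1 or 3, or IDH1R132H replicate 1 or 3, brought CXCL16 past 2-fold, to between 1.03 and 1.13. Leaving out replicate 2 of either group lowered the difference instead. Parental replicate 2 was the lowest of its group at 0.78 TPM, and IDH1R132H replicate 2 the highest of its group at 6.4.

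SOD2 and ICAM1, target genes with high levels, neither rose nor fell. SOD2, the mitochondrial superoxide dismutase, had group means from 196 TPM in IDH2R172K to 248 in IDH2R140W and differed from Parental by −0.24 to 0.09 (limma adjusted p = 0.0674 to 0.993). ICAM1, an adhesion molecule, had group means from 49.3 TPM in IDH2R140W to 65.7 in Parental, and its difference passed 0.05 in IDH2R140W (−0.40, limma adjusted p = 0.0318), where replicate 3 was the lowest library.

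Members were also counted at any size of difference. In IDH1R132H 24 of 36 members (66.7%) had adjusted p under 0.05 and a higher level than in Parental, against 30.1% of all genes, and 4 (11.1%) a lower one, against 13.7%. Without TRAF1 and CXCL10 the higher members were 22 of 34 (64.7%). The counts were 16 higher and 3 lower in IDH2R140Q (33.3% and 11.1% of all genes), 7 and 3 in IDH2R140W (13.3% and 10.7%), and 10 and 3 in IDH2R172K (25.5% and 13.5%). Part of this moved with scaling: after median-ratio scaling, which brought the median gene to 0, the counts were 18 higher and 6 lower in IDH1R132H (22.1% and 21.2% of all genes), 7 and 8 in IDH2R140Q (19.9% and 20.4%), 9 and 4 in IDH2R140W (12.8% and 13.1%), and 7 and 5 in IDH2R172K (19.1% and 19.6%). The members' median difference was 0.48, 0.31, 0.25 and 0.20 in the same order, beside 0.16, 0.23, 0.03 and 0.13 for all genes, and after median-ratio scaling it was 0.29, 0.08, 0.20 and 0.06. Without Parental replicate 2, the count in IDH1R132H was 19 higher and 4 lower (25.5% and 13.8% of all genes).

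**Figure D5:**
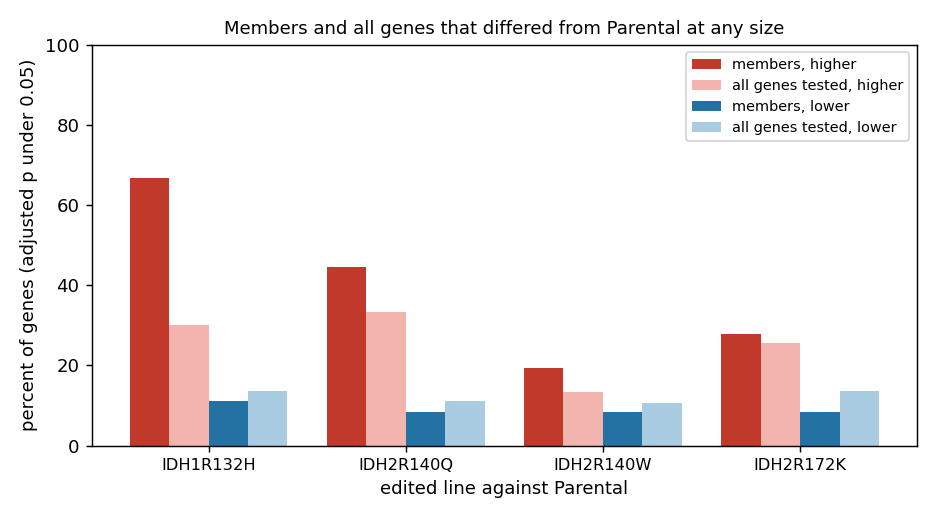
Percent of the 36 members tested (dark bars) and of all 14881 genes tested (light bars) with adjusted p under 0.05 and a level above (red) or below (blue) Parental at any size of difference, in each edited line. In IDH1R132H 66.7% of members and 30.1% of all genes were higher, and in the other lines the bars for members and all genes lie closer together. The members were chosen with earlier results of these data known.

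The 4 edited lines, which shared their medium, were also compared with each other. By an F test across them, with adjusted p under 0.05 and a span of at least 2-fold, 11 of 36 members differed (30.6%, against 19.3% of all genes): NFKB2, RELB, NFKBIE, TNFAIP2, TNFAIP3, BIRC3, IL1A, IL1B, IL1RN, PTGS2 and CXCL10. Of the 36, IDH1R132H had the highest mean of the edited lines for 20 members (55.6%, against 28.1% of all genes), IDH2R140Q for 6 (16.7%, against 34.4%), IDH2R140W for 5 (13.9%, against 14.8%) and IDH2R172K for 5 (13.9%, against 22.7%). All 3 IDH1R132H libraries were above the other 12 libraries for 13 members (36.1%, against 9.52% of all genes), namely NFKB2, RELB, NFKBIA, NFKBIE, TNFAIP2, TNFAIP3, TNIP1, TNIP2, BIRC2, BIRC3, TRAF1, PTGS2 and CXCL10, and below them for TNFRSF1B and IL1B (5.56%, against 4.31%). TRAF1 and CXCL10 were let into the test by IDH1R132H, and without them 11 of 34 members lay above (32.4%), 10 of 34 passed the F test (29.4%) and IDH1R132H had the highest mean for 18 of 34 (52.9%).

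In pairs, with CXCL10 counted despite its entry through IDH1R132H, that line was called higher than IDH2R140Q for RELB, NFKBIE, TNFAIP2, PTGS2 and CXCL10 (13.9% of members, against 2.4% of all genes). It was higher than IDH2R140W for TNFAIP3, BIRC3 and CXCL10 (8.33%, against 5.48%), and higher than IDH2R172K for NFKB2, RELB, TNFAIP2, TNFAIP3, BIRC3, IL1RN and CXCL10 (19.4%, against 4.17%). Without TRAF1 and CXCL10 these shares were 11.8%, 5.88% and 17.6% of 34 members. The calls in the other direction were IL1A against IDH2R140W (2.78%, against 2.39%), and IL1A and IL1B against IDH2R172K (5.56%, against 3.32%). Among the IDH2 lines the called pairs of members were those of IL1A alone, lower in IDH2R140Q than in IDH2R140W (1.5% of all genes) and than in IDH2R172K (3.12%). These pairs use the same 3 IDH1R132H libraries, so their calls are not independent of each other either.

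Beyond the 38 members, 91 further genes of the pathway were listed, of which 89 were in the table and 61 were tested. In IDH1R132H 6 of them rose and 3 fell (9.84% and 4.92%, against 7.74% and 3.09% of all genes), and in IDH2R140Q 1 rose and 3 fell (1.64% and 4.92%, against 7.56% and 2.47%). In IDH2R172K 2 rose (3.28%, against 6.36%). In IDH2R140W 5 rose (8.2%, against 2.68%), but 2 of the 5, CCL3 and CCL4, reached the level for testing only through the IDH2R140W libraries. Without the genes of this list that needed their highest group to reach that level, 3 of 57 rose (5.26%). With at least 5 TPM in 3 libraries 3 rose, and the share of all genes under that filter is not given here. CD40, a TNF-family receptor that signals through the non-canonical pathway, was the gene of this list that rose in all 4 lines, as 0.793% of all genes did. It stood at 2.2, 1.93 and 2.76 TPM in Parental, 25.6, 29.4 and 29.4 in IDH1R132H, 32.6, 34.6 and 36.9 in IDH2R140Q, 4.87, 6.56 and 6.68 in IDH2R140W and 43.4, 45.9 and 50.9 in IDH2R172K. Its order, with IDH2R172K on top, was not that of RELB, TNFAIP3 or BIRC3, for which IDH1R132H was highest. The differences were 3.15, 3.44, 1.09 and 3.86 (limma adjusted p = 5.12e-10, 2.61e-10, 2.75e-05 and 7.38e-11), and that in IDH2R140W was 0.94 without Parental replicate 2 and IDH2R140W replicate 3.

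In IDH1R132H the signalling genes TAB2, an adaptor of the kinase TAK1, and PRKCQ, a protein kinase C of T-cell receptor signalling, rose by 1.23 and 1.27 (limma adjusted p = 3.32e-06 and 2.25e-06), from means of 44.4 and 33.6 TPM to 105 and 81.9. IL1RAP, the shared chain of the interleukin 1 receptor family, is named beyond the 4 largest rises. It rose from 28.2 to 60.2 TPM (1.11, limma adjusted p = 0.000298), which became 0.91 after either scaling and 0.87 without Parental replicate 2. CD69, an early activation antigen, rose from 4.80 to 13.7 TPM in IDH1R132H and to 14.4 in IDH2R140W (1.33 and 1.41, limma adjusted p = 1.60e-06 and 2.35e-06). PRKCB, another protein kinase C, fell from 54.2 to 19.5 TPM in IDH1R132H (−1.39, limma adjusted p = 0.000262). TLR6, the remaining gene that rose there, reached a mean of 4.19 TPM, below the 5 TPM asked of named genes, and is named after its values were seen. Its rise of 1.05 went to 0.91 after median-ratio scaling, 0.86 after quantile normalisation, 0.97 without Parental replicate 2, 0.99 without Parental replicate 3 and 0.97 without IDH1R132H replicate 3.

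CSF2, which encodes GM-CSF itself, was low in the same lines as IL1A. It stood at 5.3, 5.09 and 4.6 TPM in Parental, 1.23, 1.26 and 1.56 in IDH1R132H, 1.8, 1.98 and 1.88 in IDH2R140Q, 9.5, 10.1 and 11.7 in IDH2R140W and 10.5, 9.17 and 9.2 in IDH2R172K. The libraries formed 3 levels, low in IDH1R132H and IDH2R140Q, middle in Parental and high in the other lines, and CSF2 fell by 1.35 in IDH1R132H and by 1.05 in IDH2R140Q (limma adjusted p = 1.00e-06 and 1.24e-05), while the differences of 0.93 and 0.83 in IDH2R140W and IDH2R172K were under 2-fold (7.83e-05 and 0.000111). LCN2, the iron-binding lipocalin, fell in IDH1R132H from 7.38 to 2.76 TPM and rose in IDH2R172K to 18.5 (−1.11 and 1.28, limma adjusted p = 0.00147 and 0.000604). The fall went under 2-fold without Parental replicate 3 (−0.89) or IDH1R132H replicate 2 (−0.94), and the rise without Parental replicate 1 (0.97). IL1RL1, the receptor for interleukin 33, rose in IDH2R140W from 0.91 to 13.6 TPM (2.90, limma adjusted p = 1.54e-06), and PLAU, the urokinase, fell in IDH2R140Q from 6.17 to 1.94 (−1.27, adjusted p = 2.86e-05). The remaining calls, named after their values were seen, were IL18R1, lower in IDH2R140Q, and the chemokines CCL3 and CCL4, tested only through IDH2R140W and higher there at means of 1.78 and 2.30 TPM.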

How the data were processed

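The authors deposited 1 table of TPM values for 15 poly(A) RNA libraries, its rows named by gene symbol. Tools listed in the submitters' processing notes are RSEM, HTSeq, DESeq2 and STAR (2.7.3), without saying what each did, and the genome is hg38. The annotation release is not given in the sources used here. TPM keeps no read number, so depth per library is unknown.

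Rows with the same symbol were summed (no member had more than 1 row). Log2(TPM + 1) was fitted with limma 3.58.1 (R 4.3.3), with 1 mean per group and an intensity trend, over the 14881 genes that reached 1 TPM in 3 or more libraries. The procedure was tested on simulated data with independent noise, in which the changed genes lay above 5 TPM in Parental. That test did not cover changes of weakly expressed genes or spread shared between libraries. Members called in any comparison, the subunits and the IkB genes are given by library, the others by range. Of other pathway genes, up to 4 rises and 4 falls with at least 5 TPM are described, and some are named beyond this rule. Members and lists were chosen with earlier results of these data known. Gene coordinates are from GENCODE release 29. Same-numbered libraries did not deviate together (30 pairs, r from −0.29 to 0.22, median 0.00), so the numbers were not used as pairs. Between libraries of different groups and other numbers r ran from −0.37 to 0.50 (60 pairs, median 0.005), with 4 pairs over 0.1. Some libraries of different groups thus shared deviations, which the fit does not model. Alternatives were a pseudocount of 0.1, no filter or 5 TPM, median-ratio and quantile scaling, fits of only the compared groups, a replicate block and each library left out; leaving out Parental replicate 2 with IDH2R140W replicate 3 was added after the data were seen.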

Additional observations from a re-analysis of the deposited data

Results flagged for a closer look

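For 11 members the change against Parental was not the same in the 4 edited lines, by an F test across the lines with a span of at least 2-fold between the highest and the lowest line. These were 30.6% of the 36 members tested, against 19.3% of all genes. CXCL10 and TRAF1 were tested only because they were high in IDH1R132H, and without them 10 of 34 members differed (29.4%). With IDH1R132H highest and IDH2R172K lowest, the log2 spans were 1.16 for NFKB2, 1.37 for RELB, 1.44 for TNFAIP2, 1.88 for TNFAIP3, 1.29 for IL1RN and 1.68 for CXCL10. With IDH1R132H highest and IDH2R140Q lowest they were 1.22 for NFKBIE and 1.13 for PTGS2, and for BIRC3 the span was 1.78, from IDH1R132H to IDH2R140W. The order was turned for the interleukin 1 cytokines, for which IDH1R132H was the lowest line: 1.45 for IL1A, with IDH2R140W highest, and 1.30 for IL1B, with IDH2R172K highest.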

How the results depend on the processing

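Of 16 calls of single members against Parental, 10 met the rule under every alternative that could be fitted, 6 lost the 2-fold difference under at least 1, and 0 reversed. The counts that follow hold rises and falls together. The share of all genes called under each setting is not given beside them. The number of members called in IDH1R132H was 10, and 6 both with at least 5 TPM in 3 libraries and after quantile normalisation, and it was at most 11 under the alternatives. In IDH2R140Q it was 2, 6 with a pseudocount of 0.1 and 1 with at least 5 TPM. In IDH2R140W it was 2, 4 with a pseudocount of 0.1, and 1 with at least 5 TPM and after quantile normalisation, and it lay between 1 and 2 when each library was left out in turn. In IDH2R172K it was 2, 3 with a pseudocount of 0.1, and 1 after either scaling. Of the 11 members that differed among the edited lines, 7 did so with at least 5 TPM. The filter at 5 TPM tests fewer members (27 of 38); for the other settings the cause was not tested. With the replicate number as a block the counts were 10, 2, 2, 2 and 11, as without it; the numbers did not pair the libraries. Read depth is unknown, so no counting limit can be given for the members below 1 TPM.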
